A study of Mus musculus with 36 samples.

Results

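Transcript levels of 41 genes that encode proteasome subunits, their activators and their dedicated chaperones were followed in mouse hearts over the day, in 2 genotypes. The genes were chosen by name and level: protein-coding genes whose symbol is Psma, Psmb, Psmc, Psmd or Psme followed by a number, with a mean of at least 1 FPKM (reads per kilobase of transcript, scaled to the depth of the library) over the 18 WT libraries. Of 18762 genes in the tables, 43 had such a symbol and 41 reached that level. Psmd10, the lowest of those kept, averaged 6.39 FPKM in WT, while Psma8, a subunit best known from testis, averaged 0.480 FPKM and Psmb11, a subunit of the thymus, 0.029 FPKM, and both fell out. Each of the 41 also passed the filter used for testing (at least 1 FPKM in at least 3 libraries), so no member was lost there.

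The 26S proteasome is the protease that degrades proteins tagged with ubiquitin. Its 20S core is a barrel of alpha rings, which form the gate, and beta rings, in which Psmb5, Psmb6 and Psmb7 carry the proteolytic sites, and its 19S cap holds a base, with ATPases that unfold the substrate, and a lid that removes the ubiquitin. Interferons induce the subunits Psmb8, Psmb9 and Psmb10, which replace Psmb5, Psmb6 and Psmb7 to form the immunoproteasome, and the activator PA28, made of Psme1 and Psme2, which binds the core in place of a cap. In heart muscle the proteasome turns over contractile proteins and misfolded proteins, and the immunoproteasome is known from leukocytes as well as from heart cells.

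Whole hearts came from C57BL/6 mice aged 8 weeks, on normal chow and a cycle of 12 h light and 12 h dark, at zeitgeber times (ZT, counted in hours from lights on) 2, 6, 10, 14, 18 and 22. WT mice were Reverb fl/fl, and KO-labelled mice were Reverb fl/fl/MHC+, so both genotypes carried the floxed allele of Rev-erb, a circadian repressor. The labels do not spell out MHC, which in heart strains commonly means the myosin heavy chain promoter driving Cre, and no group carried it alone, so the transgene and the loss of Rev-erb cannot be told apart. Every group held 3 libraries, which gave 18 WT libraries and, without KO at ZT22, 15 KO-labelled ones, and since the labels do not state that these were separate animals the p-values measure only the spread between these samples.

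The targeted gene did not check the labels. Nr1d1, which encodes Rev-erb alpha, was at 192 to 317 FPKM in KO-labelled hearts and at 10.7 to 87.7 FPKM in WT hearts at the same 5 times, higher rather than lower in every one, and values per gene do not show whether a deleted exon was read. Arntl, a clock gene that Rev-erb represses, rose as well, from 0.73 to 13.75 FPKM in WT libraries to 23.7 to 30.5 FPKM in KO-labelled ones (a log2 difference of 2.61 ± 0.06, limma adjusted p = 3.32e-23). Depth recovered from the values was 13.52 to 15.67 M reads in WT and 15.16 to 17.36 M reads in KO-labelled libraries, and in the 3 libraries with deposited counts the members held 78 to 8311 reads each. The 12 markers of heart muscle cells summed to 74658 to 79707 FPKM in WT and 75829 to 80279 FPKM in KO-labelled libraries, so both genotypes held the defining transcripts of heart muscle. In these bulk samples fewer cells of a type and less RNA per cell cannot be told apart. Some libraries stood apart. KO ZT14 replicate 1 was high in Psmb8 and Psmb9, and WT ZT2 replicate 1 in the heat shock gene Hspa1a, which is not a member, at 113.94 FPKM. WT ZT14 replicate 1 held 135.55 FPKM of Psma7, against 114.7 and 97.94 FPKM in its group. Its summed FPKM of members, 3332.6, was the highest of all libraries.

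In WT hearts the subunits of the core and cap lay close together, within a few-fold, and the inducible subunits Psmb8 and Psmb9 and the chaperones lay well below them. Psmb7, the trypsin-like site, had the highest mean over the 6 times, at 157 FPKM, 24.6 times that of Psmd10. The constitutive beta subunits ranged from 103 to 157 FPKM (median 128), the alpha subunits from 42.1 to 122 (median 97.0), the base ATPases from 61.1 to 124 (median 73.3), and the lid subunits from 33.0 to 89.8 (median 66.5). Of the immunoproteasome subunits, Psmb10, at 34.8 FPKM, was on a level with the lowest lid subunit, Psmd14, at 33.0 FPKM. Below all of these were Psmb8 at 11.1 and Psmb9 at 7.92 FPKM, and the base chaperones Psmd5, Psmd9 and Psmd10 at 9.82, 7.45 and 6.39 FPKM. The activators spanned 35.6 FPKM for Psme3 to 143 FPKM for Psme1, which was on a level with the core subunits. Together the 41 genes made up 0.567% ± 0.014 (SD, n = 15) of the summed FPKM in WT and 0.567% ± 0.010 (SD, n = 15) in KO-labelled hearts at the 5 shared times.

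**Figure D1:**
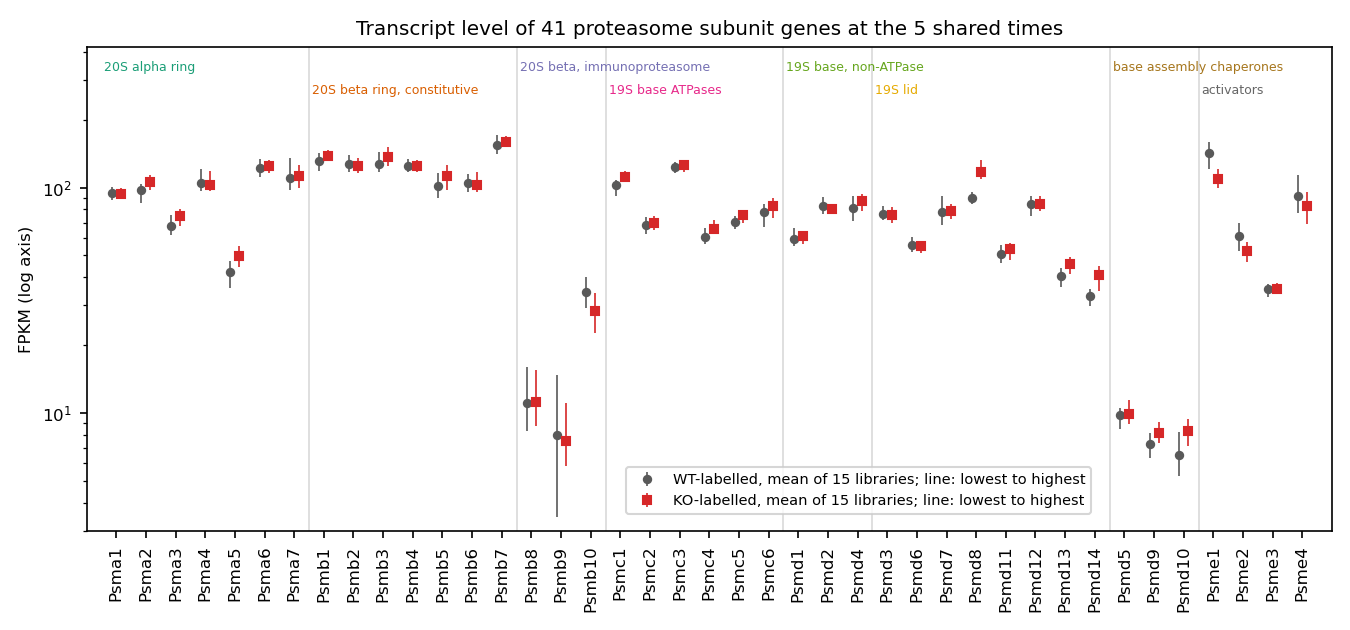
Level of each of the 41 genes in FPKM on a log axis, grouped by role, with the mean of 15 WT (grey circles) and 15 KO-labelled (red squares) libraries at the 5 shared times and lines from the lowest to the highest library. Psmb8, Psmb9 and the chaperones lie below the other genes, and WT and KO-labelled means differ visibly for Psmd8 and Psme1.

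Short stretches of promoter are shown for members that the results below turn on, so that letters known to bind regulators of these genes stand beside the values. RefSeq (GRCm38.p6, the assembly of mm10) gave promoters, 250 bases before to 50 after the annotated start, for 35 of the 41 genes (38 promoters). The letters CCGGAAG, a core bound by ETS factors, occurred on either strand in 13 of the 38 (34.2%, of 12 genes), against 17.2% of the 12094 promoters of genes tested here and 8.86% of all 32851 promoters. In the values as deposited 8 of those 12 genes had a called rhythm in WT hearts, beside 16 of all 41 members and 38.6% of all genes tested. The 41 include those 12 and the genes without a promoter here, and the tally was made with the rhythm calls known. Among the 8 were Psmd4, a ubiquitin receptor, Psmc6, a base ATPase, and Psmd11, a lid subunit. The 4 not called were Psmd2, Psmd6, Psme3 and Psme4. With median-ratio scaling Psmc2, Psmd12 and Psmd13 lost the call, and Psmd2 and Psme3 gained it. A link between these letters and rhythm was not tested. TGACNNNGC, the form bound by Nfe2l1 and Nfe2l2, occurred in 6 promoters (15.8% against 14.3% of those of tested genes), that of Psmb5 among them, TTCNNNGAA, the gamma-activated site of interferon signalling, in 2 (5.3% against 6.61%), Psmb8 and Psmd2, and the E-box CACGTG, bound by the clock activators, in 4 (10.5% against 9.95%), Psmb10 among them. CCAAT was found in 13 (34.2% against 37.4%), TAGGTCA, the core of a Rev-erb and ROR element, in 2 (5.3% against 1.8%), and a relaxed interferon element of 2 GAAA repeats 2 bases apart in 4 (10.5% against 2.99%). The promoters of members had a median GC content of 58.2%, against 60.7% for tested genes. A match describes the letters and is no evidence of binding. Each stretch below reads 5′ to 3′ on the gene's strand, with the matched letters in capitals: the ETS letters in the first 4, of which that of Psmd11 lies on the other strand, then the Nfe2l1, gamma-activated site and E-box letters.
Psmd4 (chr3:95042696-95042775, minus strand): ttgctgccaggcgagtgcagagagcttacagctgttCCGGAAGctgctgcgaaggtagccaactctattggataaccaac
Psmc6 (chr14:45329688-45329767, plus strand): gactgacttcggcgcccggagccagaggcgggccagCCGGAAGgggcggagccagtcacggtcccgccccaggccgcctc
Psmd11 (chr11:80428535-80428614, plus strand): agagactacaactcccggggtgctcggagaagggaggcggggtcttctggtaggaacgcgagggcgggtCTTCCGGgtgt
Psme4 (chr11:30771686-30771765, plus strand): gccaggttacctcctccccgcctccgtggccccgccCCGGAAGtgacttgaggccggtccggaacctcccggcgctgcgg
Psmb5 (chr14:54617998-54618077, minus strand): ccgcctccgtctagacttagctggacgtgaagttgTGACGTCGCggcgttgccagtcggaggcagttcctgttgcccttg
Psmb8 (chr17:34198063-34198142, plus strand): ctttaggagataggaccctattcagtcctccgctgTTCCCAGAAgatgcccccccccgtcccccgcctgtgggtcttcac
Psmb10 (chr8:105938466-105938545, minus strand): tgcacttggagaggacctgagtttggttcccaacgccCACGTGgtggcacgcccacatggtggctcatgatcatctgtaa

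The first comparison asked what the genotype did to these genes on average over the 5 shared times. By limma on log2(FPKM + 1), with p-values adjusted over all 11790 genes tested, 18 of the 41 members were higher in KO-labelled hearts, where 33.2% of all genes tested were higher, and 5 were lower, where 23.4% were lower. In either direction 23 of 41 were called, against 56.6% of all genes, a share close to the background. Differences were small: the median over the members was a log2 difference of 0.03, beside 0.02 over all genes tested, and 4 rose and 3 fell by at least 0.2. Of all 41 members, 18 were both called and of 1 sign at all 5 times, as were 43.3% of all genes tested. The split depends on the scaling: quantile normalization gave 16 higher and 8 lower, and removing each library's trend on gene length gave 12 and 12. Members are short, with a median implied length of 1264.5 bases against 2747 for genes tested, and libraries differed in that trend. Its slope, in log2 units of a library's deviation from the mean library per doubling of length, was 0.014 ± 0.018 (SD, n = 15) in WT and -0.012 ± 0.020 (SD, n = 15) in KO-labelled libraries. Calls named below as holding did so in all of these scalings.

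**Figure D2:**
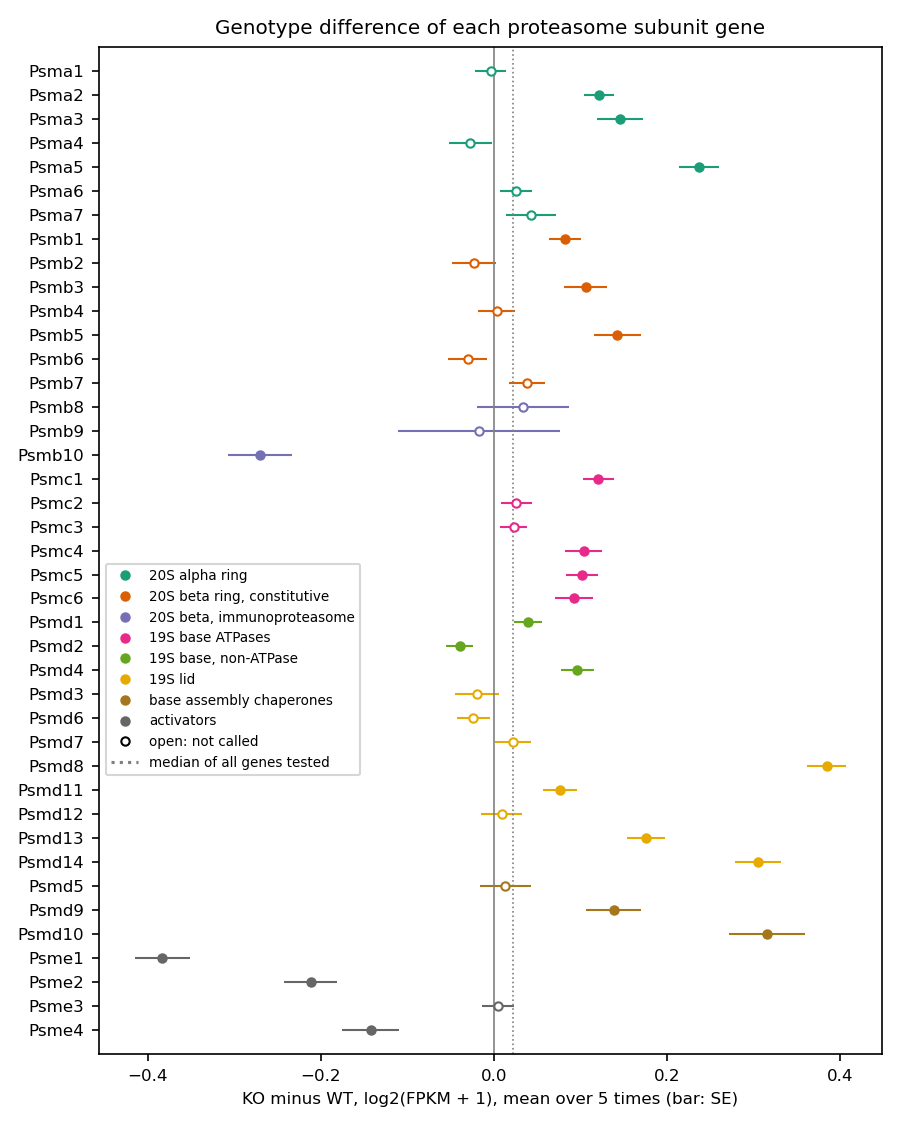
Difference between KO-labelled and WT hearts for each of the 41 genes, in log2(FPKM + 1), averaged over 5 times, with bars for the SE and colours for the role. Filled points passed the limma threshold, the dotted line is the median of all genes tested, and the activator Psme1 and the lid subunit Psmd8 lie at opposite ends.

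The lid of the 19S cap held the increase of greatest size. Psmd8, a lid subunit (chromosome 7, 29174187 to 29180673, mm10), had a lowest, median and highest value of 84.5, 89.7 and 95.9 FPKM in the 15 WT libraries and of 109, 115 and 133 FPKM in the 15 KO-labelled ones. Every KO-labelled library lay above every WT library, which held for 3.95% of all genes tested and for no other member. The difference was 0.38 ± 0.02 (log2, SE, n = 15 per genotype, limma adjusted p = 2.26e-14), from a mean of 89.9 to 118 FPKM. Psmd14, the lid enzyme that cuts ubiquitin chains off the substrate (chromosome 2, 61711694 to 61800376), ranged from 29.8 to 35.5 FPKM in WT and from 34.8 to 44.8 FPKM in KO-labelled libraries. Only 1 KO-labelled library, at 34.76 FPKM, lay inside the WT range, and the mean rose from 32.9 to 40.9 FPKM (0.31 ± 0.03, adjusted p = 9.43e-11). Psmd13, another lid subunit (chromosome 7, 140882394 to 140898642), rose from 40.7 to 46.0 FPKM (0.18 ± 0.02, limma adjusted p = 1.12e-07). It shares 342 exonic bases with Sirt3 on the opposite strand, and since the labels name no stranded protocol reads of that stretch cannot be told apart. In all, 4 of the 8 lid genes rose in the values as deposited (median 0.05) and none fell, the fourth being Psmd11 (0.08 ± 0.02). Beside this, 33.2% of all genes tested rose and 23.4% fell. There Psmd3, Psmd6, Psmd7 and Psmd12 were not called, at -0.02 to 0.02. Psmd6 was called lower with quantile normalization, with median-ratio scaling and with the length trend removed (-0.06, -0.05 and -0.08). Psmd3 was called lower with the length trend removed (-0.06). The calls of Psmd8, Psmd13 and Psmd14 held in each scaling, as did that of Psma5 in the core.

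**Figure D3:**
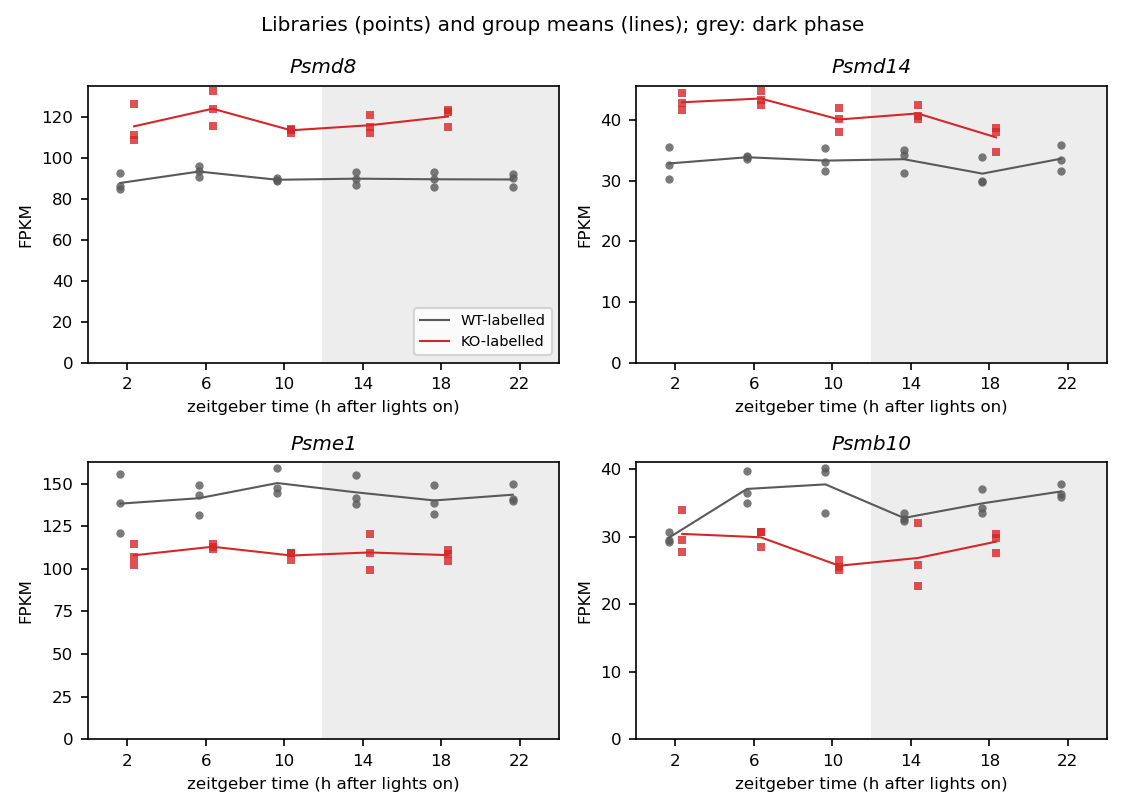
FPKM in each library (points) and group means (lines) over zeitgeber time for Psmd8, Psmd14, Psme1 and Psmb10 in WT (grey circles, 6 times) and KO-labelled (red squares, 5 times) hearts. Psmd8 and Psmd14 are higher and Psme1 is lower in KO-labelled hearts at each of the 5 times, and Psmb10 overlaps at ZT2.

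In the base, 4 of the 6 ATPase genes rose (Psmc1, Psmc4, Psmc5 and Psmc6, at 0.09 to 0.12), where 33.2% of all genes tested rose. Psmc2 and Psmc3 were not called, and the median of the 6 was 0.10. These ATPases form the ring that unfolds the substrate. Psmd4, which binds ubiquitin chains, was 0.10 ± 0.02 higher (81.4 to 87.0 FPKM, limma adjusted p = 0.000108). The scaffold subunits differed by less: Psmd1 was 0.04 ± 0.02 higher (adjusted p = 0.0414) and Psmd2, on which shuttle proteins dock, 0.04 lower (-0.04 ± 0.02, adjusted p = 0.0342). Psmd1 was not called in any other scaling. Psmd11 was not called with quantile normalization or with the length trend removed, and Psmc6 and Psmd4 were not called with that trend removed. The call of Psmd2 held in each scaling. Leaving out any of 9 single libraries undid the call of Psmd2, and any of 18 that of Psmd1.

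Chaperones that help to assemble the base are scarce in the finished complex. Psmd10, known as gankyrin (chromosome X, 140948425 to 140956711), had a lowest, median and highest value of 5.26, 6.41 and 8.24 FPKM in WT and of 7.14, 8.26 and 9.39 FPKM in KO-labelled libraries. Its ranges overlapped, but the KO-labelled median was above the highest WT library, and the difference was 0.32 ± 0.04 (n = 15 per genotype, limma adjusted p = 5.52e-07). Psmd9 rose from 7.31 to 8.13 FPKM (0.14 ± 0.03, adjusted p = 0.000561) and Psmd5 was at 9.77 and 9.87 FPKM (0.01 ± 0.03, adjusted p = 0.738). Of the 3 chaperone genes 2 thus rose, where 33.2% of all genes tested did, and both calls held under each scaling. Psmd9 shares 1849 exonic bases with an opposite-strand transcript, Gm26745.

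In the core barrel, 3 of the 7 alpha genes and 3 of the 7 constitutive beta genes rose and none fell, with medians of 0.04 in each ring. These counts stand beside 33.2% of all genes tested that rose and 23.4% that fell. Psma5, of the alpha ring (chromosome 3, 108256926 to 108279952), ranged from 35.9 to 47.5 FPKM in WT, with a median of 42.7, and from 44.6 to 55.2 FPKM, with a median of 49.9, in KO-labelled libraries. Most KO-labelled libraries lay above the WT range, and the mean rose from 42.3 to 49.95 FPKM (0.24 ± 0.02, limma adjusted p = 8.43e-10). Psma3 and Psma2 rose by less, 0.15 ± 0.03 and 0.12 ± 0.02, and Psma1, Psma4, Psma6 and Psma7 were not called, at -0.03 to 0.04. Among the proteolytic subunits, Psmb5, the chymotrypsin-like site (chromosome 14, 54614120 to 54617995), rose from 102 ± 6.57 to 113 ± 7.79 FPKM (SD, n = 15 each) with overlapping ranges (0.14 ± 0.03, adjusted p = 5.57e-05). Psmb6, the caspase-like site, was at 105 and 103 FPKM (-0.03 ± 0.02, adjusted p = 0.265) and Psmb7 at 155 and 159 FPKM (0.04 ± 0.02, adjusted p = 0.118). The other beta genes called were Psmb1 and Psmb3 (0.08 and 0.11). Without the length trend Psmb1 and Psmb3 were not called, and Psmb2, Psmb4, Psmb6, Psma1 and Psma4 were lower.

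Of the 5 members that fell, 3 were activators, 1 was the inducible subunit Psmb10 and 1 was Psmd2 of the base, described above. Of the 4 activator genes 3 fell and none rose (median -0.18), where 23.4% of all genes tested fell and 33.2% rose. Psme1, the alpha subunit of PA28 (chromosome 14, 55578494 to 55581527), had a lowest, median and highest value of 120.96, 143 and 159 FPKM in WT and of 99.1, 109 and 120.64 FPKM in KO-labelled libraries. All 15 KO-labelled libraries were below all 15 WT libraries, as was so for 2.8% of genes tested and for no other member. The nearest pair, WT ZT2 replicate 1 and KO ZT14 replicate 1, were among the libraries that stood apart. The mean fell from 143 to 109 FPKM (-0.38 ± 0.03, n = 15 per genotype, limma adjusted p = 2.95e-11). Psme2, the beta subunit of PA28 (chromosome 14, 55587440 to 55591101, 5912 bases from Psme1), ranged from 52.4 to 69.4 FPKM in WT and from 46.6 to 57.6 FPKM in KO-labelled libraries. It fell from 60.9 to 52.3 FPKM (-0.21 ± 0.03, adjusted p = 1.22e-06). Psme2 was the only member whose deposited counts were not whole, and a similarly named gene, Psme2b, is annotated on chromosome 11, so its level is uncertain. The ratio of Psme1 to Psme2 FPKM was 2.36 ± 0.14 (SD, n = 15) in WT and 2.09 ± 0.08 (SD, n = 15) in KO-labelled libraries, with ranges of 2.12 to 2.59 and 1.94 to 2.23 that overlap in part, a difference that was not tested.

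The other activators bind the core in the nucleus. Psme4, or PA200 (chromosome 11, 30771775 to 30881150), fell from 91.8 to 83.0 FPKM (-0.14 ± 0.03, limma adjusted p = 0.000542) with ranges of 77.4 to 114 and 69.0 to 96.0 FPKM. Its difference was -0.28 at ZT14 and 0.09 at ZT18 (adjusted p = 0.00485 and 0.396), where WT averaged 85.3 and KO-labelled hearts 90.7 FPKM, and the interaction test did not call it (adjusted p = 0.134). Psme3, or PA28 gamma, was at 35.4 and 35.5 FPKM (0.00 ± 0.02, adjusted p = 0.867). Among the immunoproteasome subunits, Psmb10, which replaces Psmb7 (chromosome 8, 105935728 to 105938392), fell from 34.4 to 28.4 FPKM, with a lowest, median and highest value of 29.2, 33.5 and 40.1 FPKM in WT and of 22.7, 28.4 and 34.0 FPKM in KO-labelled libraries (-0.27 ± 0.04, adjusted p = 4.21e-07). Psmb8 and Psmb9 averaged 11.03 and 7.97 FPKM in WT and 11.3 and 7.53 FPKM in KO-labelled libraries and were not called (0.03 ± 0.05, adjusted p = 0.615, and -0.02 ± 0.09, adjusted p = 0.890). Of the 5 members induced by interferon (Psmb8, Psmb9, Psmb10, Psme1 and Psme2) 3 fell and none rose, with a median of -0.21. Of all genes tested 23.4% fell and 33.2% rose. The falls of Psmb10, Psme1, Psme2 and Psme4 held in each scaling, and the fall of Psmb6 seen in 3 of them did not hold in the values as deposited.

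At single times, the number of members called higher and lower was 13 and 3 at ZT2 (18.6% and 11.3% of all genes tested), 8 and 2 at ZT6 (19.1% and 12.7%), 9 and 6 at ZT10 (14.3% and 13.5%), 8 and 6 at ZT14 (19.2% and 11.8%) and 14 and 2 at ZT18 (17.7% and 14.4%). In either direction that made 16, 10, 15, 14 and 16 members, beside 29.9%, 31.8%, 27.8%, 30.9% and 32.1% of all genes. Psmd8, Psmd13, Psmd14 and Psma5 were called higher at each of the 5 times (7.01% of all genes) and Psme1 lower at each (5.09%). Psmd8 was the member with the largest increase at ZT2, ZT6, ZT10 and ZT14, at 0.34 to 0.40, and Psmd10 at ZT18, at 0.44. Psme1 was the largest decrease at each time (-0.32 to -0.40 among those times) but ZT10, where it was -0.48 and Psmb9 fell most.

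At ZT10 the inducible subunits stood apart by genotype. Psmb9 (chromosome 17, 34182030 to 34187330) was at 10.53, 13.5 and 14.83 FPKM in the WT libraries and at 7.78, 7.16 and 6.58 FPKM in the KO-labelled ones. Psmb8 (chromosome 17, 34198195 to 34201454) was at 14.07, 14.5 and 16.07 against 10.09, 10.31 and 11.93 FPKM, and Psmb10 at 40.09, 39.53 and 33.54 against 26.54, 25.45 and 25.03 FPKM. Psmb8 shares 498 exonic bases with Gm20496 and Psmb9 shares 212 with Tap1, each on the opposite strand. With no stranded protocol named, reads of those stretches cannot be told apart. For Psmb9, Psmb8 and Psmb10 the differences were -0.76 ± 0.21, -0.43 ± 0.12 and -0.53 ± 0.08 (limma adjusted p = 0.00679, 0.00659 and 1.24e-05, n = 3 per group in a fit over all genes). At this time 13.5% of all genes tested were called lower. In each of these genes all WT libraries lay above all KO-labelled ones. The share of all genes that did so was not counted, so this only describes the values. At ZT14, Psmb8 was at 9.5, 8.86 and 10.4 FPKM in WT and at 15.57, 8.9 and 8.81 FPKM in KO-labelled libraries, the high value being replicate 1. The same library held 11.04 FPKM of Psmb9, against 6.07 and 5.82 FPKM in its group. Among the leukocyte markers, the class II genes Cd74, H2-Aa and H2-Ab1 were also lower at ZT10, by -0.66, -0.69 and -0.70 (adjusted p = 0.00601, 0.00499 and 0.00945). At ZT14 Cd74 was at 127.35 FPKM in KO-labelled replicate 1, against 73.89 and 66.55 FPKM. The other leukocyte markers are not given at ZT10. In the mean effect these class II genes fell while Psmb8 and Psmb9 were not called. Of the 14 leukocyte markers tested 10 were not called and 1 rose, and the median of the list was 0.02, as over all genes tested. The class II genes were named here after their values were seen, and their part in the result was not tested.

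**Figure D4:**
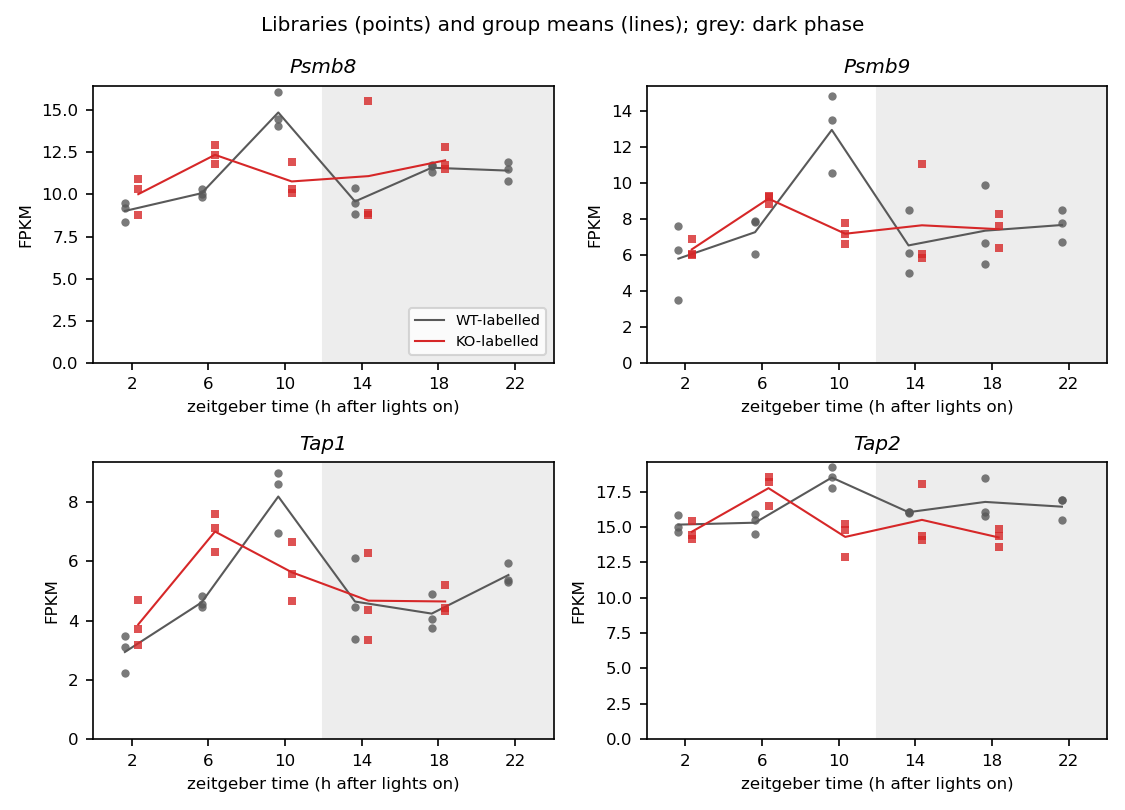
FPKM in each library (points) and group means (lines) over zeitgeber time for Psmb8, Psmb9 and the interferon-linked genes Tap1 and Tap2, in WT (grey circles, 6 times) and KO-labelled (red squares, 5 times) hearts. The WT group means are highest at ZT10, where the WT libraries lie above the KO-labelled ones in each panel, and 1 KO-labelled library is high at ZT14. Psmb9 and Tap1 share 212 exonic bases on opposite strands.

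A test of whether the genotype difference changed with the time of day called 1 member, Psmb10 (limma adjusted p = 0.0403), where 5.37% of all genes were called and 9 members had an unadjusted p under 0.05. Its difference was 0.02 at ZT2, where WT held 29.19, 30.73 and 29.44 FPKM and KO-labelled hearts 27.68, 29.52 and 33.96 FPKM, and -0.30, -0.53, -0.29 and -0.25 at ZT6, ZT10, ZT14 and ZT18. Psmb8 (adjusted p = 0.0512) and Psmb9 (0.0976) did not pass. Without KO ZT14 replicate 1 the values were 0.00612 for Psmb10, 0.000736 for Psmb8 and 0.0678 for Psmb9, and without that library and WT ZT2 replicate 1 together, a choice made after seeing the data, 0.0106, 0.000621 and 0.0229. The call of Psmb10 was lost under 5 alternatives, where its adjusted p was 0.0528 to 0.0749, and when any of 16 single libraries was left out, with the highest value, 0.101, without KO ZT2 replicate 3.

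Ratios of each inducible subunit to the one it replaces put these differences on 1 scale. The ratio of Psmb10 to Psmb7 FPKM averaged 0.223 ± 0.030 (SD, n = 15) in WT and 0.179 ± 0.019 in KO-labelled libraries, with overlapping ranges of 0.189 to 0.285 and 0.143 to 0.214. Psmb8 to Psmb5 gave 0.109 ± 0.023 and 0.0999 ± 0.0141, and Psmb9 to Psmb6 gave 0.0763 ± 0.0299 and 0.0735 ± 0.0144, so neither moved beyond its spread. Of the summed FPKM of the 6 catalytic genes the inducible ones made up 12.9% ± 1.7 in WT and 11.2% ± 1.1 in KO-labelled libraries. By time the WT share was highest at ZT10, at 15.7%, against 10.6% in KO-labelled hearts, and lay between 11.1% and 13.3% at the other 5 times.

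The next question was which members followed a 24 h rhythm, fitted as a cosine and sine to 18 WT libraries and to 15 KO-labelled ones. A rhythm was called for 16 of 41 members in WT, where 38.6% of all genes were rhythmic, and for 5 in KO-labelled hearts, where 26.9% were. Amplitudes (from the fitted mean to the fitted peak, on the log2 scale) of those 16 were 0.06 to 0.16 with a median of 0.08, beside a median of 0.15 over all rhythmic genes. A difference in rhythm between genotypes was called for 0 members (1.09% of all genes, lowest adjusted p = 0.306), with 2 at an unadjusted p under 0.05. An F test over the time means in place of the cosine is the interaction test above and called Psmb10.

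In WT, in the values as deposited, 13 of the 16 rhythmic members peaked between ZT6 and ZT14 and 3 between ZT18 and ZT22, a split that changed with the scaling. Psmd4 was at 77.69, 74.51 and 75.71 FPKM at ZT2, at 88.8, 85.88 and 90.82 FPKM at ZT10, at 91.78, 87.0 and 85.65 FPKM at ZT14 and at 70.49, 72.97 and 77.65 FPKM at ZT22. Its ZT10 and ZT14 libraries all lay above those of the other times (amplitude 0.14, peak at about ZT11, limma adjusted p = 9.04e-06). Psmc6 peaked at ZT8.7 with an amplitude of 0.15 (adjusted p = 0.000231), with group means of 81.3 FPKM at ZT10 and 68.2 FPKM at ZT18. Psmd1 peaked at ZT13.4 (adjusted p = 0.000901) and Psmd11 at ZT10.6 (adjusted p = 0.00158). The other members that peaked between ZT6 and ZT14 were Psma2, Psma5, Psma6, Psmc1, Psmc2, Psmd7, Psmd10, Psmd12 and Psmd13, from the alpha ring, the base, the lid and the chaperones. The 3 others, Psmb3, Psmb6 and Psmb7, were constitutive beta subunits and peaked at ZT19.3, ZT21.2 and ZT18.7.

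Psmb3, a structural beta subunit, was at 117.07, 120.5 and 121.33 FPKM at ZT10 and at 138.24, 133.34 and 143.58 FPKM at ZT18. Psmb6 averaged 99.7 ± 3.24 FPKM at ZT14 and 113 ± 1.96 FPKM at ZT18 (SD, n = 3 each). The 4 constitutive beta genes that were not called, Psmb1, Psmb2, Psmb4 and Psmb5, had fitted peaks at ZT16.5, ZT20.7, ZT22.9 and ZT20.5. Of all rhythmic genes, 49.7% peaked between ZT6 and ZT14 and 18.3% between ZT18 and ZT22, windows set after the members' peaks were seen. No test of the difference in peak between beta and other members was made. In the 3 other scalings Psmb3, Psmb6 and Psmb7 were again called, with peaks from ZT18.6 to ZT21.7, but other members changed. With median-ratio scaling 18 members were called, 6 with a peak between ZT6 and ZT14, 7 between ZT18 and ZT22 and 5 outside both windows. There Psma2, Psmc2, Psmd7, Psmd12 and Psmd13 were not called, and the base ATPases Psmc4 and Psmc5 were called with peaks at ZT21.2 and ZT19.7, so the night peaks were not those of beta subunits alone. With the length trend removed the 19 calls fell 10, 5 and 4 in the same order, with Psmc4 again at night, and with quantile normalization the 19 calls fell 13, 4 and 2.

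**Figure D5:**
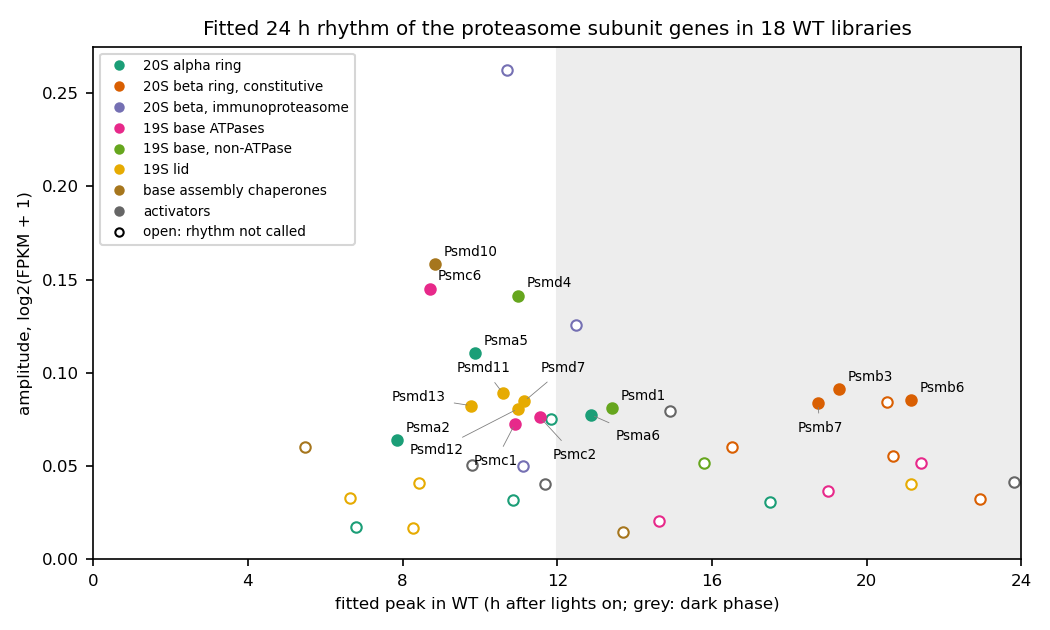
Fitted time of peak (hours after lights on) against amplitude on the log2(FPKM + 1) scale for the 41 genes in 18 WT libraries, coloured by role. Filled, named points passed the limma threshold in the values as deposited: 13 lie between ZT6 and ZT14, and the 3 constitutive beta subunits Psmb3, Psmb6 and Psmb7 lie between ZT18 and ZT22.

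In KO-labelled hearts, sampled at 5 times, Psmd11, Psmd4, Psma2, Psmd14 and Psme4 were rhythmic. Psmd11 averaged 49.6, 53.7, 55.2, 56.6 and 52.4 FPKM from ZT2 to ZT18 (peak at ZT11.8, amplitude 0.10, limma adjusted p = 0.00704). Psmd4 peaked at ZT10.8 (amplitude 0.08, adjusted p = 0.0351), close to its WT peak. Psmd14 peaked at ZT5.3 (adjusted p = 0.0429) and Psma2 at ZT6.2 (adjusted p = 0.0430). The count of 5 is loose, since it came to 1 to 6 when single libraries were left out.

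Other genes of the pathway changed in both directions, in a comparison where 33.2% of all genes tested were higher and 23.4% lower. Of 11 other cap subunits and bound proteins 6 rose and 1 fell (median 0.07): Usp14, a deubiquitinase on the cap, rose from 37.1 to 42.2 FPKM (0.18 ± 0.02, limma adjusted p = 2.39e-08), Sem1, the small lid subunit, rose from 213 to 237 FPKM (0.15 ± 0.02), and Ecpas, which clamps the cap to the core, fell from 46.7 to 39.9 FPKM (-0.22 ± 0.02). Of 5 assembly factors tested 3 rose and 1 fell, with Psmg2, Psmg3 and Pomp higher (0.12, 0.18 and 0.12) and Psmg1, the partner of Psmg2, lower (-0.20 ± 0.04, 18.3 to 15.7 FPKM). Among 11 shuttle and unfolding factors 5 rose and 4 fell, the latter being Ubqln2, Ddi2, Nsfl1c and Faf1 (-0.16 to -0.07). Vcp, the unfoldase that extracts ubiquitinated proteins, rose from 168 to 194 FPKM (0.21 ± 0.02, adjusted p = 9.31e-11), as did its cofactors Ufd1, Nploc4 and Faf2 (0.14 ± 0.02, 0.18 ± 0.03 and 0.11) and the shuttle Ubqln1 (0.07). Of 4 ubiquitin and activating enzyme genes 2 rose and 1 fell: the ubiquitin-ribosomal fusion gene Rps27a rose (0.18), as did the activating enzyme Uba1 (0.05), and the polyubiquitin gene Ubb fell (-0.14).

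Of 13 regulators of proteasome gene transcription 4 fell and 1, Mafg, rose (median -0.05), where 23.4% of all genes tested fell and 33.2% rose. Nfe2l1, the factor that raises proteasome genes when the protease fails, averaged 149 FPKM in WT and 136 FPKM in KO-labelled libraries (-0.13 ± 0.02, limma adjusted p = 1.08e-06), and Nfe2l2 was not called (-0.06 ± 0.04, adjusted p = 0.218). Foxo3 and Foxo4 fell from 20.3 to 15.5 and from 21.9 to 18.1 FPKM (-0.36 ± 0.03 and -0.26 ± 0.02), and Foxo1 was also lower (-0.12). Of 14 interferon regulators and class I presentation genes 4 fell and 1, Stat2, rose (median -0.07). The 4 were Tap2 and Tapbp, of peptide loading (-0.09 and -0.11), Erap1, a peptide trimmer (-0.12 ± 0.02), and Calr, a chaperone (-0.12 ± 0.03). At ZT10 Tap2 was at 17.74, 18.52 and 19.25 FPKM in WT and at 14.78, 12.88 and 15.25 FPKM in KO-labelled libraries (-0.35 ± 0.07, limma adjusted p = 0.000506).

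Markers of other cell types moved with genotype too, and their part in the members' differences was not tested. The counts below stand beside 33.2% of all genes tested that rose and 23.4% that fell. Of 19 leukocyte markers 14 were tested, 3 fell (Cd74, H2-Aa and H2-Ab1, the class II genes, at -0.37, -0.36 and -0.42) and 1 rose (Cd68, 0.21), the list summed to 412 to 571 FPKM in WT and 344 to 518 FPKM in KO-labelled libraries, and the T, B and natural killer cell markers Cd3e, Cd3g, Cd79a, Nkg7 and Ncr1 stayed under 1 FPKM. Of 9 fibroblast markers 6 rose and none fell (median 0.24, summed level 456 to 549 and 449 to 645 FPKM). Of 10 endothelial markers 3 rose (Egfl7, Emcn and Vwf) and 2 fell (Pecam1 and Tek), of 8 smooth muscle and pericyte markers 1 rose (Acta2, 1.43) and 1 fell (Abcc9, -0.31), and of 5 red blood cell markers none was called. Of 12 heart muscle markers 5 rose (Tnnt2, Actc1, Myl2, Myl3 and Mb) and 5 fell (Myh6, Tnni3, Ryr2, Pln and Ttn), and of 4 atrial markers Stard10 fell and Myl4, Dkk3 and Nppa rose, Nppa most, from 286 to 2819 FPKM. Of 5 adipocyte markers 1 was tested and was not called.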

How the data were processed

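RNA sequencing of mouse hearts was deposited by the authors as 1 table per library. The values in 33 tables have no stated unit and fit FPKM as deposited by the authors. No label states that unit, so it rests on the values. The 3 tables recorded for KO at ZT22 hold expected counts deposited by the authors, with 10.5 to 10.8% of the values not whole. By their headers they name the KO ZT10 libraries, and genes at zero or not fell together for 99.957 to 99.963% of genes with same-named FPKM tables, so they were used only for gene lengths and depth and KO ZT22 was not analysed here. For WT ZT14 headers number the libraries otherwise than the record does, and the record was used. 1 further column of values was not used. Per the submitters' processing notes the genome was mm10. Which aligner and counting program the authors ran is not given in the sources used here. RefSeq named 18623 of 18762 gene IDs, and exonic overlaps come from GENCODE of the same build.

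Because FPKM are not counts, limma 3.58.1 (R 4.3.3, trend on mean level) was fitted to log2(FPKM + 1) over the 11790 genes that reached 1 FPKM in 3 or more libraries. A gene was called at a Benjamini-Hochberg adjusted p under 0.05. Genotype effects and interaction came from group means (22 residual degrees of freedom), and a 24 h cosine and sine (27 degrees of freedom) gave the rhythms. Differences understate those of low genes. The fit was tested on simulated data. Steps between low FPKM values gave the depth. No pair of libraries was identical (0 pairs). Alternatives were pseudocount, filters, scalings, length trend, replicate block, no trend on mean level, an F test over times, WT at the shared times and each library left out.

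Members, lists and tests were chosen with earlier results of these data known. Named genes follow a rule: the 6 largest called increases and decreases, the catalytic and inducible subunits, the activators, the chaperones, up to 4 called members with the smallest p per test, the extremes at each time and level, and up to 3 called genes per list. Some genes of the lists are not reported here and were left out of the lists' counts, though not of the fit. Cd68, Psme4 as rhythmic in KO, Tap1, Tap2, Hspa1a and members counted in small groups were named after their values were seen.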

Additional observations from a re-analysis of the deposited data

Results flagged for a closer look

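Genotype differences that changed with the time of day, by the interaction test in limma, were found for 1 member and for 3 genes of the pathway lists reported here. The same test called 5.37% of all genes tested. Psmb10 had an adjusted p of 0.0403 and went from 0.02 at ZT2 to -0.53 at ZT10. In the interferon and antigen presentation list the adjusted p was 0.0116 for Tap2, 0.0239 for Erap1 and 0.0412 for Irf9, and each had its most negative difference at ZT10 (-0.35, -0.27 and -0.42). Tap2 and Irf9 lie outside the rule for named genes and are named for these values. Causes were not tested.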

How the results depend on the processing

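Of the 41 members, 18 were higher and 5 lower in the main result. The lower count became 8 under quantile normalization and 12 with the length trend removed. Members called at ZT6 (10) became 6 under median-ratio scaling, and those at ZT18 (16) became 10 under quantile normalization and 9 without the length trend. The interaction (1 member) gave 0 with no filter, under quantile normalization and without a trend on mean level, 2 among genes that average 5 FPKM or more and without the length trend, and 3 without WT ZT2 replicate 1 and KO ZT14 replicate 1, a setting chosen after seeing the data. Under median-ratio scaling it called 1 member, Psmd7 and not Psmb10. KO rhythms (5) became 3 with no filter, 8 without the length trend and 10 by the F test over times, which also called 1 rhythm difference, Psmb10. Apart from the interaction, the counts for the mean effect changed little with the pseudocount and filters, and no result reversed. The cause of these shifts was not tested. Leaving out 1 library at a time gave 17 to 19 members higher, 4 to 5 lower, 11 to 16 called at ZT2, 6 to 11 at ZT6, 11 to 16 at ZT10, 9 to 15 at ZT14, 9 to 16 at ZT18, 0 to 4 in the interaction (Psmb10 adjusted p 0.00612 to 0.101), 16 to 18 WT rhythms, 1 to 6 KO rhythms and 0 to 0 rhythm differences, and 17 to 21 pathway genes higher and 15 to 17 lower.

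With the replicate number as a replicate block, 17 members were higher and 5 lower, the interaction called 0 members (Psmb10 adjusted p = 0.0528) and KO rhythms fell to 2. The numbers did not pair the libraries: same-numbered deviations had a mean correlation of 0.003 (-0.15 to 0.16), and 11 of 33 libraries correlated best with their own number.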
